A study of Mus musculus with 67 samples.

Results

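Chaperones are proteins that bind other proteins while they fold, hold them back from clumping and hand them on to assembly or breakdown. The HSP70 proteins (genes named Hspa) bind and release short stretches of unfolded chain in a cycle driven by ATP. The J-domain proteins (Dnaja, Dnajb and Dnajc) deliver clients to HSP70 and start that cycle, the chaperonin (Tcp1 and Cct) encloses actin and tubulin in a barrel, and prefoldin (Pfdn) carries chains to that barrel. The peptidyl-prolyl isomerases (Fkbp and Ppi) turn the peptide bond before proline. Neurons rely on this machinery because they do not divide and cannot dilute misfolded proteins.

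The chaperone and heat shock genes were taken by symbol from the probes of the array that carry exactly 1 gene symbol. Symbols of the Hsp, Hspa, Hspb, Hspd, Hspe, Hsph, Hsf, Dnaja, Dnajb, Dnajc, Cct, Bag, Pfdn, Fkbp and Ppi series were used together with Tcp1, and Hspg2, which encodes an extracellular matrix protein, was left out. This gave 35 genes on 40 probes, of 4209 named genes on 4875 probes in a table of 8448 probes. Where a gene had more than 1 probe, the probe with the highest mean value stood for it. They comprised 1 HSP90 gene (Hsp90aa1), 5 HSP70 and HSP110 genes, the HSP70 cofactor Hspbp1, 12 J-domain genes, 7 chaperonin and prefoldin genes, 7 isomerases and 2 genes named for heat shock factors (Hsf5 and Hsf2bp, of which Hsf2bp is named for binding another such factor). Apart from Hspbp1, whose symbol begins with Hspb, the rule found no Hspb, Hspd, Hspe, Hsph or Bag gene. The authors counted more genes than the 8448 probes of this table, so a family missing here may have been measured elsewhere in the study.

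The samples were cerebral cortices of C57BL/6 mice, each hybridised to its own array (67 arrays, 67 mice by the labels). Mice on caloric restriction (CR), whose feed was cut in steps from 14 weeks of age to 60% of the freely eaten amount, were 6 months (5 females, 4 males), 16 months (5 females, 5 males) or 24 months old (5 females of 703 to 743 days, 3 males of 673 days). Mice fed ad libitum (AL) were 17-21 days old (3 females, 2 males), 33-44 days old (2 females, 3 males) or 6, 16 or 24 months old (5 females and 5 males at each age). No transgene or mutation was stated for any group, and cortical tissue was not sorted into cell types, so a difference in the share of a cell type and a difference in RNA per cell cannot be told apart. The cortex label could be checked only thinly, since 2 of 16 neuron markers were on named probes, with mean z-scores of 0.25 for Nefl and -0.70 for Gap43, and 0 oligodendrocyte markers were.

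Each value is a z-score: the log intensity of a probe in units of the SD of its own array, with the array mean at 0. Differences below are in these z units and are not fold changes. The levels of different genes also rest on different probes and are given only as places on the array. A gene is said to pass where limma's moderated test gave an adjusted p under 0.05 after Benjamini-Hochberg adjustment over all 8448 probes. The 22 arrays numbered 46 and above differed from the 45 arrays numbered 45 and below in 77.9% of all probes and in 24 of the 35 chaperone genes, 13 higher and 11 lower in the arrays with the higher numbers. No mouse of 17-21 days was among those 22 arrays, whereas 2 of 5 mice of 33-44 days and 2 to 4 mice of each other age and diet were. Replicate 2 of the 16 months AL males and replicate 2 of the 16 months AL females were nearly the same array (4312 of 8448 values identical, 18 of the 35 chaperone genes among them). They were averaged and counted as 1 sample in the values below that pool the sexes of an age and diet. Levels over all 67 arrays keep both. Since these arrays carry different sex labels, 1 of these labels may be wrong.

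Among these genes, Hspa5 and Dnajc3 carry a well-known control sequence in their promoters. The endoplasmic reticulum (ER) stress element is the site through which the unfolded protein response switches on ER chaperones, and was searched as CCAAT and CCACG held 9 bases apart, on both strands, from 250 bases before to 50 bases after each gene start in RefSeq's GRCm38.p6 annotation. It was found for Hspa5 (BiP, the HSP70 of the ER lumen) and Dnajc3 (an ER-lumen J-domain protein), which are 2 of the 28 chaperone genes with a promoter in that table, against 0.137% of its 27025 genes. The windows below are shown because Dnajc3 is the chaperone gene with the smallest p-value in any comparison, and the capitals mark the match.
Hspa5, chr2:34771985-34772083, plus strand: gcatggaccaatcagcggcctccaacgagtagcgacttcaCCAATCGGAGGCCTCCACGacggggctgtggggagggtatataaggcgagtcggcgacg
Dnajc3, chr14:118937787-118937885, plus strand: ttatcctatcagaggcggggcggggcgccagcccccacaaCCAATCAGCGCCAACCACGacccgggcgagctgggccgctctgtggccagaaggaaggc
The match started 65 bases before the gene start in Hspa5 and 105 bases before it in Dnajc3. The ER stress element contains the common CCAAT box. The heat shock element, the site of heat shock factors, written GAANNTTCNNGAA or its reverse complement, was found in 0 of the 28, against 0.662% of the 27025 genes. Such a match is a description of letters and says nothing of whether a factor was bound in these cortices.

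Across all 67 arrays, chaperone genes spanned nearly the whole scale of the array. Hspa8, the constitutive HSP70 of the cytosol, had the highest mean z-score, 2.16 ± 0.40 (SD, n = 67 arrays), which is at the percentile of 99.6 among named probes. Dnaja1, an HSP40 that partners Hspa8, followed at 1.34 ± 0.37 and Dnajb11, an ER-lumen J-domain protein, at 1.24 ± 0.29, and these neighbours in the order overlapped in their ranges, 0.63 to 2.07 for Dnaja1 and 0.55 to 1.80 for Dnajb11. Hspa5 stood at 0.96 ± 0.18 and the chaperonin subunits stood at 0.98 ± 0.19 for Cct4, 0.64 ± 0.52 for Cct6a and 0.40 for each of Tcp1, Cct2 and Cct7. The prefoldin subunits Pfdn5 and Pfdn1 were lower, at -0.61 ± 0.26 and -0.65 ± 0.17. Hsp90aa1, the stress-responsive HSP90, stood at -0.03 ± 0.20, and Hspa9, the HSP70 of mitochondria, at 0.00 ± 0.28.

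At the low end stood Dnajb9, an ER-lumen J-domain protein that binds BiP, at -3.41 ± 0.84, which is at the percentile of 0.1 among named probes. Dnajc13, which acts at endosomes, stood at -1.86 ± 0.29, Fkbp5, the isomerase that binds glucocorticoid receptor complexes, at -0.93 ± 0.18, and Dnajc15, a J-domain protein of mitochondria, at -0.91 ± 0.18. In all, 19 of the 35 genes had a mean z-score above 0, against 47.8% of the 4209 named genes with their probes chosen in the same way, and the median was 0.02 for the chaperone genes and -0.04 for the named genes.

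**Figure D1:**
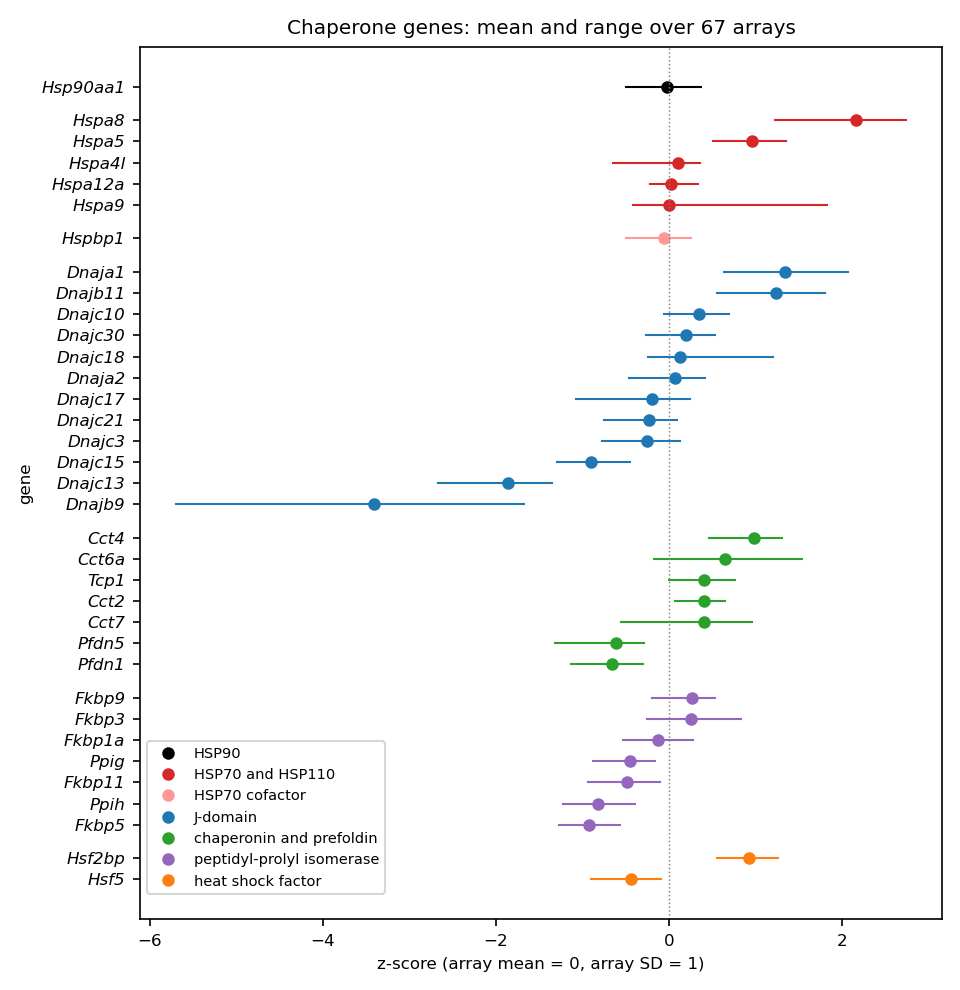
Mean z-score (points) and lowest to highest value (lines) of each of the 35 chaperone genes over 67 arrays, grouped by protein family, with the z-score on the horizontal axis. Hspa8 lies highest at 2.16 and Dnajb9 lowest at -3.41, and Dnajb9 also has the widest range.

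The genes differed in how steady they were. The SD within a group of equal age, diet and sex had a median of 0.19 over the chaperone genes and 0.21 over all probes. It was largest for Dnajb9 (0.89), Cct6a (0.57) and Cct7 (0.47), and smallest for Hspa12a (0.12), a distant HSP70 relative, Cct2 (0.12) and Hsf2bp (0.14). For Cct6a and Cct7, subunits of one and the same barrel, the arrays numbered 46 and above went opposite ways, with Cct6a 0.93 higher and Cct7 0.83 lower than in the other arrays. Hspa8 was 0.79 lower and Dnaja1 0.66 higher in those arrays. The median size of this shift was 0.17 over the chaperone genes and 0.22 over all probes.

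From 17-21 days to 33-44 days of age, the span between weaning and adolescence, 0 of the 35 chaperone genes passed, as against 8 of all 8448 probes (0.0947%), and 4 of 35 had an unadjusted p under 0.05, as against 14% of all probes. Of these 4, Dnajc3, Hsf5 and Hspbp1 were lower at 33-44 days, and Dnajc30 was higher. Over the 35 genes the median difference was 0.02, and 18 were higher at 33-44 days, as against a median of 0.00 and 50.5% of all probes.

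Dnajc3 had the smallest p. Its z-scores at 33-44 days were -0.71 and -0.38 in the females and -0.78, -0.63 and -0.25 in the males, against -0.25, -0.17 and 0.12 in the females and -0.12 and -0.01 in the males of 17-21 days. All 5 mice of 33-44 days were at or below the lowest mouse of 17-21 days, and the groups touched at -0.25. The difference was -0.47 ± 0.12 (SE, limma), with an adjusted p of 0.0654. The lowest values at 33-44 days, -0.78 and -0.71, came from the arrays numbered 46 and above.

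Hsf5, a heat shock factor known in the mouse mainly from the testis, had z-scores of -0.90 and -0.41 in the females and -0.82, -0.52 and -0.45 in the males of 33-44 days, against -0.48, -0.40 and -0.16 in the females and -0.21 and -0.09 in the males of 17-21 days. The groups overlapped between -0.48 and -0.41. The difference was -0.38 ± 0.10 (SE, limma), with an adjusted p of 0.0786. Hspbp1, which prompts HSP70 to release its nucleotide, averaged -0.27 ± 0.22 at 33-44 days and 0.01 ± 0.14 at 17-21 days (SD, n = 5 each), a difference of -0.31 with an adjusted p of 0.138 in limma. Dnajc30, a mitochondrial J-domain protein, averaged 0.35 ± 0.24 at 33-44 days and 0.11 ± 0.08 at 17-21 days (SD, n = 5 each), a difference of 0.22 with an adjusted p of 0.304 in limma.

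**Figure D2:**
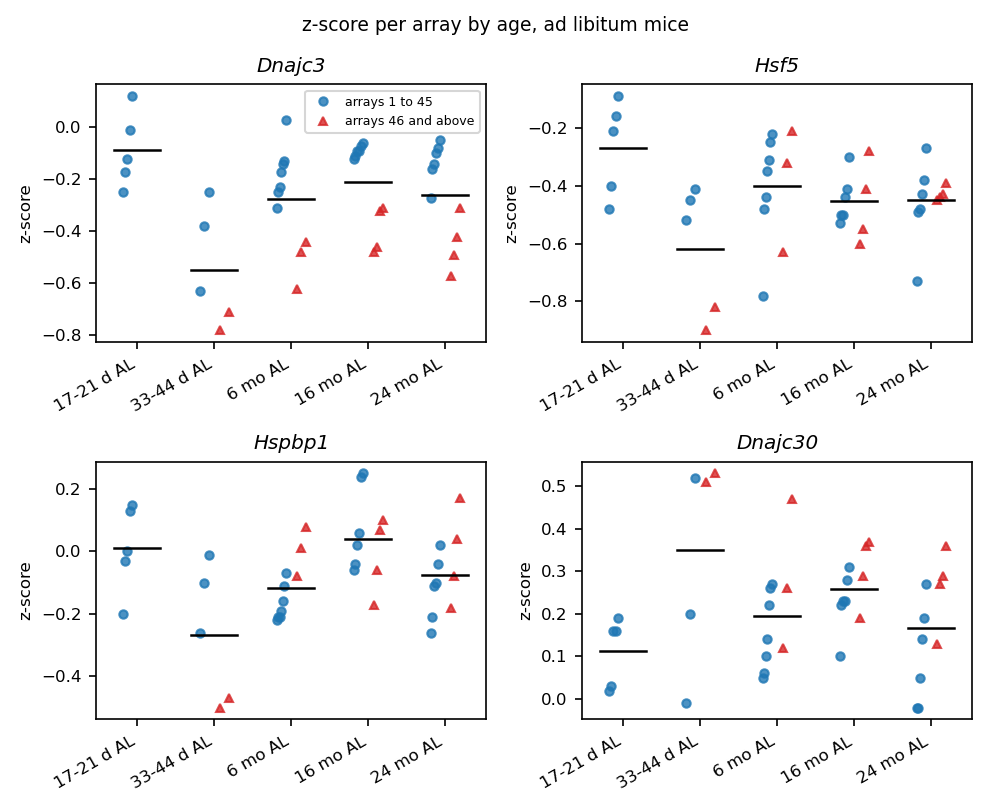
z-score per array (vertical axis) of Dnajc3, Hsf5, Hspbp1 and Dnajc30 in AL mice by age, with circles for arrays 1 to 45, triangles for arrays 46 and above and a bar at the mean of the points shown. Dnajc3 is lowest at 33-44 days, where the triangles lie at -0.78 and -0.71, and the triangles also lie lower than the circles at 6, 16 and 24 months.

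These calls turned on single arrays and on the array set. With the array set as a block, Dnajc3 passed, at -0.35 with an adjusted p of 0.0193 in limma, and with array cycle (5 passes of the array numbers through the groups) and array set as blocks it passed at -0.32 with an adjusted p of 0.0463. Within the arrays numbered 45 and below the difference was -0.33 (adjusted p of 0.684 in limma). Over all alternatives the adjusted p of Dnajc3 ran from 0.0134 to 0.994, the highest without 33-44 days AL female replicate 2, where the difference was -0.38. Without 33-44 days AL male replicate 2, 3 chaperone genes passed (Dnajc3, Hsf5 and Hspbp1), without 17-21 days AL female replicate 2, 2 passed (Dnajc3 and Hsf5), and without 33-44 days AL female replicate 1, 4 passed, these being the same genes with Dnajc30, at -0.55 for Dnajc3, -0.50 for Hsf5, -0.37 for Hspbp1 and 0.36 for Dnajc30.

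The place of a probe on the filter moved with this comparison. The filter is laid out in 16 blocks of 24 rows and 22 columns, and the median difference of the 352 probes in a row was -0.14 in row 1, -0.21 in row 2, 0.02 in row 10 and 0.23 in row 24. Dnajc3 and Hspbp1 lay in row 7, where the median probe differed by -0.20 and 88.1% of probes were lower at 33-44 days, and Hsf5 lay in row 5, with a median of -0.20. Hspa8 (-0.44, row 2), Cct7 (-0.50, row 4) and Pfdn5 (-0.33, row 4) were lower in the upper rows, and Dnaja1 (0.42, row 20) and Cct6a (0.51, row 24) were higher in the lower ones, and none of these 5 had a p under 0.05. Measured against the probes around it, within 2 rows and 2 columns, Dnajc3 differed by -0.14 and the probes around it by -0.33, Hsf5 by -0.20 and its surroundings by -0.18, Hspbp1 by -0.10 and its surroundings by -0.21, and Dnajc30 by 0.05 and its surroundings by 0.18. After that correction Dnajc3 had an adjusted p of 0.623 in limma, and 0 of the 35 passed. The part of filter place in the age difference itself was not tested.

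**Figure D3:**
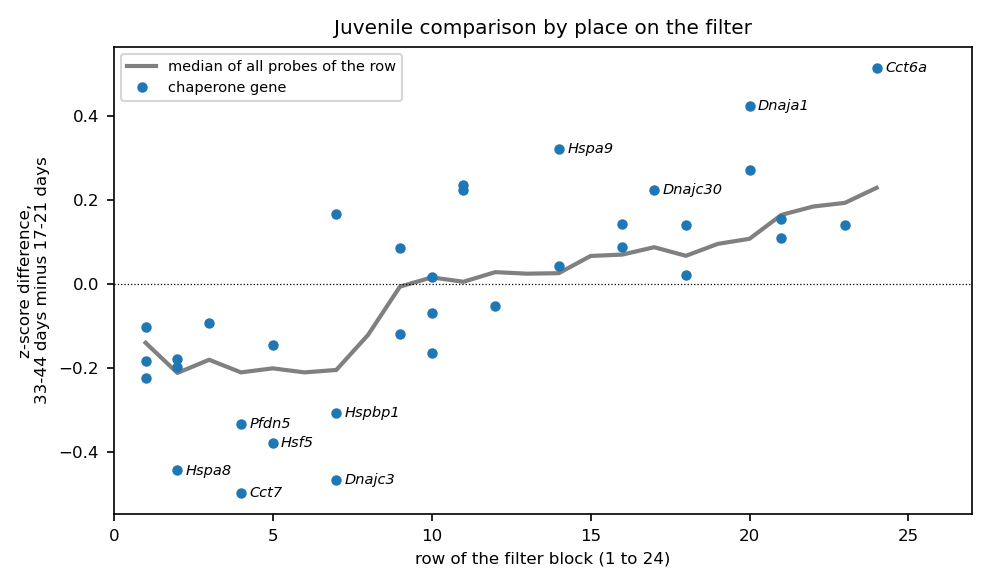
z-score difference between 33-44 days and 17-21 days (vertical axis) of each chaperone gene (points) against the row of its probe in the filter block (horizontal axis), with the median of all 352 probes of a row as a line. The line climbs from near -0.2 in the first rows to 0.23 in row 24, and Dnajc3, Hsf5 and Hspbp1 lie below it in rows 5 and 7.

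Genes of the unfolded protein response were read beside Dnajc3. Of 36 listed genes of ER folding and this response, 15 were measured. Of these, 5 were higher at 33-44 days, against 50.5% of all probes, with a median of -0.12. A p under 0.05 was found for 4, against 14% of all probes, and 0 passed. By filter row, Eif2ak3 (row 2), Derl1 (row 3), Tor1a and Edem1 (row 4), Pdia6 (row 6), Xbp1 and Derl2 (row 7) were lower. The rest lay in rows 9 to 24, where Ern1, Serpinh1, Pdia5, Atf4 and Pdia3 were higher and P4hb, Syvn1 and Creld2 lower. Against their surroundings Derl1 differed by -0.26, Tor1a by -0.18, Pdia6 by -0.11, Eif2ak3 by -0.01 and Edem1 by 0.02. The part of filter place in this list was not tested. Xbp1, a transcription factor of this response, averaged 0.01 ± 0.23 at 33-44 days and 0.44 ± 0.13 at 17-21 days (SD, n = 5 each), a difference of -0.44 with an adjusted p of 0.0559 in limma. Derl2, which takes part in moving misfolded proteins out of the ER, averaged -0.49 ± 0.29 at 33-44 days and 0.01 ± 0.12 at 17-21 days, a difference of -0.49 with an adjusted p of 0.0912. Both probes lay in row 7 of their blocks, as did those of Dnajc3 and Hspbp1, and against their surroundings Xbp1 differed by -0.11 and Derl2 by -0.24. Hspa5 itself, whose promoter holds the same element, averaged 0.94 ± 0.26 at 33-44 days and 0.81 ± 0.26 at 17-21 days (SD, n = 5 each). Of 12 red cell markers 6 were measured, 4 of these were lower at 33-44 days, and their summed z-score ran from -0.27 to 1.66 at 33-44 days and from 1.04 to 1.65 at 17-21 days. Hbb-y alone among them passed, at -0.42 with an adjusted p of 0.0265 in limma, and its probe was in row 7 as well. Their part in the values of the chaperone genes was not tested.

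Among the other related lists in that comparison, 7 of 20 HSP90 and HSP70 co-chaperones, 9 of 15 mitochondrial folding genes and proteases, and 13 of 26 other folding catalysts were measured, and 0 of them passed in any of the 14 comparisons. Between 33-44 and 17-21 days 5 of the 13 other folding catalysts had a p under 0.05, as did 0 of the 7 co-chaperones and 0 of the 9 mitochondrial genes, against the same 14% of all probes. Cryab, a small heat shock protein also known as a lens crystallin, differed by 0.51 and Clu, a secreted chaperone, by -0.30, with adjusted p of 0.297 and 0.278 in limma.

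From 33-44 days to 6 months of AL feeding 0 of 35 chaperone genes and 0 of all probes passed, and 4 of 35 had a p under 0.05, against 5.31% of all probes. Dnajc3 differed by 0.28, Hsf5 by 0.23, Hspbp1 by 0.17 and Hspa9 by -0.36 (6 months minus 33-44 days), with adjusted p of 0.806, 0.818, 0.901 and 0.875 in limma. Hsf5 differed by 0.10 without 33-44 days AL female replicate 2 and by 0.35 without 33-44 days AL female replicate 1. The comparison shares the mice of 33-44 days with the one above. For Hspa9 a single mouse stood apart: its z-scores ran from -0.29 to 0.23 over the 10 mice of 6 months, against -0.19 and 0.24 in the females and 1.82, 0.19 and -0.15 in the males of 33-44 days. Without 33-44 days AL male replicate 1, which had the value of 1.82, Hspa9 differed by -0.06 with an adjusted p of 0.905 in limma. Without 33-44 days AL male replicate 2, which had the value of -0.15, Hspa9 passed at -0.55 with an adjusted p of 0.0466.

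From 6 to 16 months 0 of 35 chaperone genes and 0 of all probes passed under AL feeding, and 2 of 35 had a p under 0.05, against 3.04% of all probes. Hspbp1 averaged 0.02 ± 0.12 at 16 months (n = 9) and -0.12 ± 0.10 at 6 months (SD, n = 10), a fitted difference of 0.16 that was -0.04 within the arrays numbered 46 and above. Dnajb9 averaged -4.17 ± 0.90 at 16 months (n = 9) and -3.23 ± 0.79 at 6 months (n = 10), with ranges of -5.69 to -2.65 and -3.95 to -1.68 and a fitted difference of -0.79. The fits kept the near-identical pair of 16 months as separate arrays, so fitted differences can depart from those of the means. Both had an adjusted p of 0.999 in limma. At 24 months against 6 months 0 of 35 and 0 of all probes passed, and 0 of 35 had a p under 0.05, against 2.89% of all probes. The smallest p belonged to Hspa12a (-0.12 ± 0.06) and Dnajc21 (-0.13 ± 0.07; SE, limma), a J-domain protein of ribosome assembly.

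At 24 against 16 months, when the mice had grown old, 0 of 35 chaperone genes and 0 of all probes passed under either diet. With array cycle as a block 54 of all probes passed under AL feeding, and with array cycle and array set as blocks 92 did, with 0 of the 35 chaperone genes among them, and with the neighbour correction added to both blocks 0 did. Under CR 3 of 35 had a p under 0.05, against 4.15% of all probes, and under AL feeding 3 of 35 did, against 6.57%. These comparisons share no mouse, and 27 of the 35 genes had a difference of the same sign in both (14 higher and 13 lower at 24 months), which is 77.1% against 65.7% of all probes. The filter places of the probes are the same in both. Measured against the probes around them, most of the 35 genes had opposite signs under CR and AL feeding. The share of all probes with the same sign was not taken on that measure.

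Hspa12a was the only chaperone gene with a p under 0.05 under both diets. Under CR it ran from -0.20 to 0.10 with a median of -0.04 at 24 months (n = 8), against -0.16 to 0.33 with a median of 0.09 at 16 months (n = 10). Under AL feeding it ran from -0.22 to 0.10 with a median of -0.10 at 24 months (n = 10), against -0.08 to 0.22 with a median of 0.03 at 16 months (n = 9). The groups overlapped, and the differences were -0.14 ± 0.06 under CR and -0.13 ± 0.06 under AL feeding (SE, limma), with adjusted p of 0.999 and 0.67. A second probe of Hspa12a gave 0.02 under CR and 0.11 under AL feeding, with the opposite sign in each. The probes around the first differed by -0.08 under CR and -0.12 under AL feeding, and against them Hspa12a differed by -0.06 and -0.01.

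Fkbp11, an isomerase of the secretory pathway, had the smallest p under AL feeding. It ran from -0.87 to -0.48 with a median of -0.57 at 24 months (n = 10), against -0.56 to -0.18 with a median of -0.43 at 16 months (n = 9). The groups overlapped only between -0.56 and -0.48, and the difference was -0.19 ± 0.07 (SE, limma), with an adjusted p of 0.646. Against its surroundings it was -0.15. Under CR the difference was -0.04, with medians of -0.50 at 24 months and -0.47 at 16 months.

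Cct4, a chaperonin subunit, had a positive difference (24 minus 16 months) under both diets. It ran from 0.92 to 1.19 with a median of 1.09 at 24 months under CR (n = 8), against 0.60 to 1.11 with a median of 0.91 at 16 months (n = 10), a difference of 0.21 ± 0.09 (SE, limma) with an adjusted p of 0.999. Under AL feeding the difference was 0.15. The probes around it differed by 0.15 under CR and 0.16 under AL feeding, and against them Cct4 differed by 0.06 and -0.01. The first steps of the selection in the methods (a z-ratio past 1.5 in size, a mean above 0 and an unadjusted p under 0.05) were applied without the analysis of variance that follows them. They took Cct4 alone of the chaperone genes, under CR, with a z-ratio of 2.00, and 109 probes in all (1.29%).

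Pfdn1 differed by 0.17 under CR, with medians of -0.60 at 24 months and -0.72 at 16 months. The probes around Pfdn1 differed by 0.13 under CR, and against them it differed by 0.04. Dnajb9 had a fitted difference of 0.85 under AL feeding, the largest of any probe in that comparison, and of 1.19 without both near-identical arrays. Under CR Dnajb9 averaged -3.26 ± 1.05 at 24 months (n = 8) and -3.41 ± 0.74 at 16 months (SD, n = 10), and under AL feeding -3.17 ± 0.73 at 24 months (n = 10) and -4.17 ± 0.90 at 16 months (n = 9). It has the lowest mean z-score and the widest spread of the chaperone genes, and its adjusted p under AL feeding was 0.696 in limma. With array cycle and array set as blocks, 8 of 35 chaperone genes had a p under 0.05 in the AL comparison, as against 15.9% of all probes, and 0 passed. The nearest was Dnajb11, at 0.26 with an adjusted p of 0.06, and its difference was 0.23 within the arrays numbered 46 and above and 0.27 within the others. The probes around Dnajb11 differed by 0.16, against them it differed by 0.10, and with that correction added to both blocks its adjusted p was 0.547. Without both near-identical arrays its difference was 0.16.

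**Figure D4:**
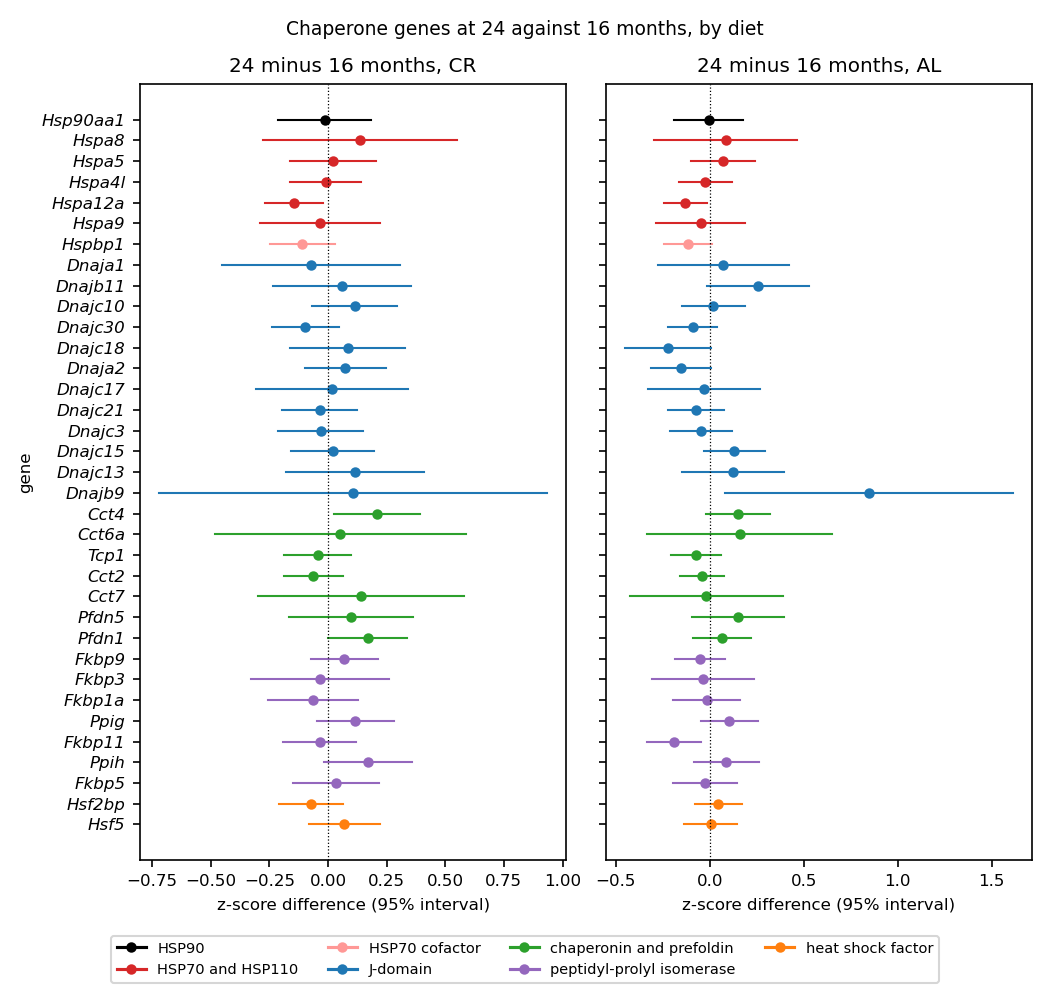
z-score difference between 24 and 16 months (horizontal axis) of the 35 chaperone genes, with 95% intervals from limma, under CR on the left and under AL feeding on the right. Most intervals cross 0, Hspa12a lies below 0 in both panels, and Dnajb9 has the widest interval.

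Caloric restriction moved no chaperone gene past the threshold. At 6 months 0 of 35 passed and 0 had a p under 0.05, against 0.462% of all probes. At 16 months 0 of 35 passed and 0 had a p under 0.05, against 1.03%, and at 24 months 0 of 35 passed and 0 had a p under 0.05, against 1.04%. Over the 3 ages together 0 of 35 had a p under 0.05, against 0.71% of all probes. No probe of the array passed in any of these 4 comparisons.

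The signs leaned to lower values under CR over the 3 ages. Of 35 genes 9 were higher under CR, with a median of -0.01, as against 49.5% of all probes and a median of 0.00. At 6 months 12 of 35 were higher, against 50.9% of all probes, and at 16 months 10 of 35, against 49.4%. At 24 months 16 of 35 were (45.7%), near the 48.3% of all probes. Over the 3 ages together, 1 of the 5 genes with 2 probes had the same sign on both. Among the chaperonin and prefoldin genes 1 of 7 was higher (Cct7, 0.04), and the rest ran down to -0.06 for Tcp1. Tcp1 averaged 0.38 ± 0.11 in CR mice of 6 months (n = 9) against 0.43 ± 0.11 in AL mice (n = 10), 0.38 ± 0.18 in CR mice (n = 10) against 0.46 ± 0.07 in AL mice (n = 9) at 16 months, and 0.34 ± 0.17 in CR mice (n = 8) against 0.38 ± 0.12 in AL mice (n = 10) at 24 months (SD). Its difference over the 3 ages was -0.06, with a 95% interval of -0.14 to 0.02 in limma, and -0.03 without 24 months CR male replicate 2. Cct2, on its first probe, differed by -0.04 with an interval of -0.11 to 0.03, and by 0.02 on its second. For Hspa5 the interval was -0.11 to 0.09, for Hsp90aa1 -0.17 to 0.05, for Hspa8 -0.20 to 0.26 and for Fkbp5 -0.15 to 0.05.

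The genes with the smallest p at single ages were Hspa4l (0.11), an HSP110 relative, and Ppih (-0.12), an isomerase of the spliceosome, at 6 months, Hsf2bp (0.11) and Dnajb9 (0.61) at 16 months, and Fkbp11 (0.12) and Dnaja2 (0.14), a cytosolic J-domain protein, at 24 months, each with an adjusted p of 1 in limma. Hsf2bp averaged 0.98 ± 0.12 in CR mice (n = 10) and 0.90 ± 0.16 in AL mice (SD, n = 9) of 16 months. Some of these turned on single arrays. Without 24 months CR male replicate 2 Dnaja2 differed by 0.07, and without 24 months AL female replicate 5 by 0.08. Without 16 months AL female replicate 1 Dnajb9 differed by 0.39, without 16 months AL female replicate 2 Hsf2bp by 0.07, and without 6 months CR male replicate 2 Ppih by -0.08. For Hsf2bp the near-identical array, 16 months AL male replicate 2, stayed in that fit. For the difference between the diets in the age change from 16 to 24 months, the smallest p belonged to Dnaja2 (0.23, CR minus AL) and Dnajc18 (0.31), and Dnajb9 had the difference of the largest size among the chaperone genes (-0.74), with an adjusted p of 1 each. Dnajc18 differed by 0.19 without 16 months AL female replicate 2, by 0.20 without 16 months AL male replicate 2 and by 0.20 without 24 months CR male replicate 2. The arrays of 16 months named here are the near-identical pair, so leaving out either kept a near copy of it in the fit. In this comparison 0 of 35 passed or had a p under 0.05, against 0.888% of all probes.

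No chaperone gene differed between females and males past the threshold. Over the adults 0 of 35 genes and 0 of all probes passed, and 0 of 35 had a p under 0.05, against 0.971% of all probes. In females 25 of 35 were higher than in males, with a median of 0.02, as against 51.8% of all probes with a median of 0.00, and 6 of 7 chaperonin and prefoldin genes were. With the neighbour correction the median was 0.005 for the chaperone genes and -0.0002 for all probes. The part of filter place in this difference was not tested. Pfdn1 had the smallest p, with -0.98 to -0.30 and a median of -0.62 in 30 females and -1.04 to -0.42 and a median of -0.68 in 27 males, a difference of 0.08 with a 95% interval of -0.01 to 0.18 in limma. Hspbp1 was next, with a median of -0.02 in females and -0.08 in males and a difference of 0.06. Both had an adjusted p of 1. The near-identical arrays of 16 months count once in each sex here, and without both of them Pfdn1 differed by 0.09 and Hspbp1 by 0.07. Hspbp1 differed by 0.04 without 24 months CR male replicate 1. The sexes did not differ past the threshold in the age change from 16 to 24 months under AL feeding, where 0 of 35 had a p under 0.05 against 0.0947% of all probes and the smallest p belonged to Hsf5 (-0.19, female minus male) and Fkbp11 (-0.16). They did not in the response to CR either, where 0 of 35 did against 0.651% and the smallest p belonged to Hsf2bp (0.15) and Dnajc21 (0.13). Fkbp11 differed by -0.10 in the age change without 24 months AL female replicate 2, and Dnajc21 by 0.06 in the response to CR without 24 months CR male replicate 3.

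**Figure D5:**
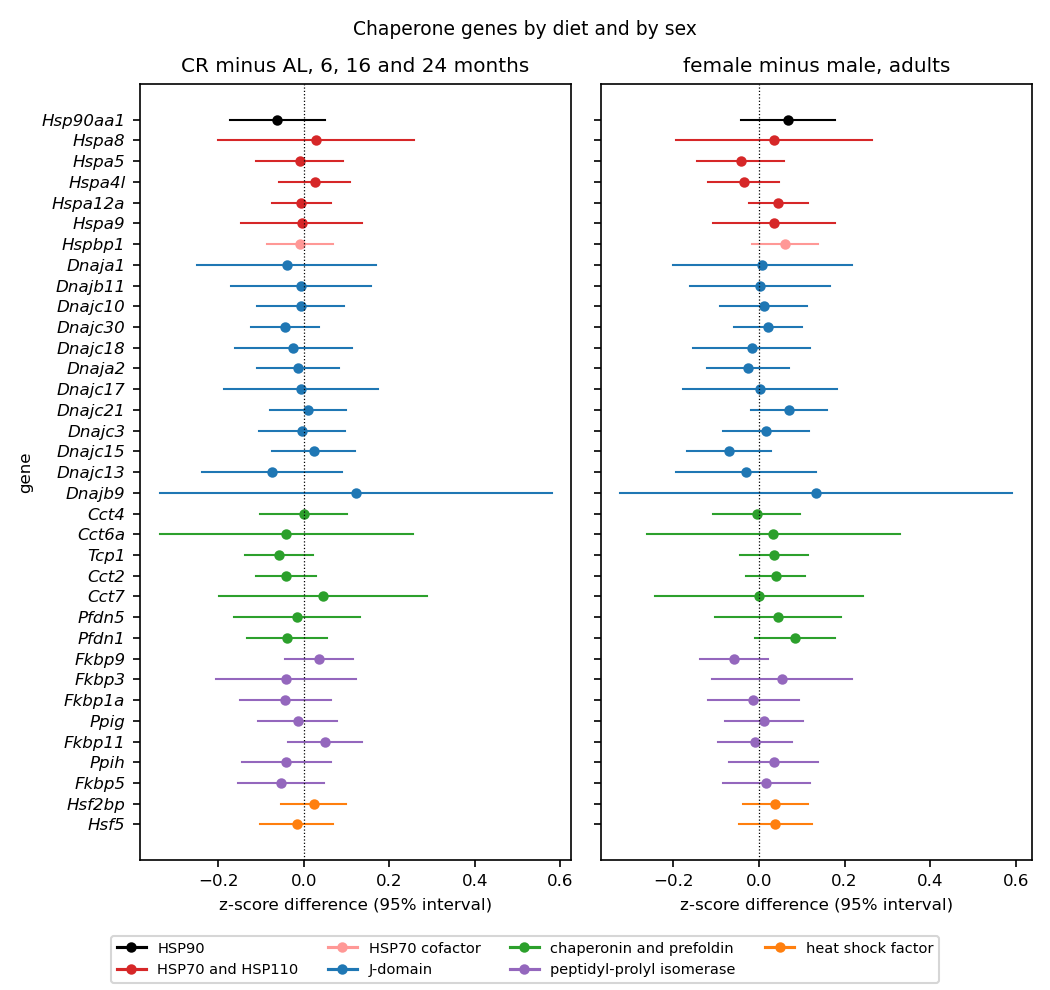
z-score difference (horizontal axis) of the 35 chaperone genes between CR and AL mice over 3 ages on the left, and between adult females and males on the right, with 95% intervals from limma. All intervals cross 0, with 9 of 35 points above 0 on the left and 25 of 35 on the right.

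The 5 genes measured by 2 probes show how far a single probe carries. Hspa8 had mean z-scores of 2.16 on its first probe and 0.07 on its second. The probes of Hspa12a, Ppig (a nuclear isomerase) and Cct2 lay farthest apart in the comparison of 24 with 16 months under AL feeding, by 0.24, 0.17 and 0.16. Hspa12a gave -0.13 and 0.11, Ppig 0.10 and -0.06, and Cct2 -0.04 and -0.20. Of the 5 pairs, 3 had the same sign in that comparison, 3 between 33-44 and 17-21 days, 3 under CR between 24 and 16 months, 1 between the diets over the 3 ages and 2 between the sexes.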

How the data were processed

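Radiolabelled cDNA from each cortex was hybridised to a filter of cDNA probes, and the authors made the deposited score values from log intensities by a z-score transformation within each array. For log base and background handling the sources used here give nothing. Intensities were not used here, so the number of arrays limits the precision, and 1 value was missing. Groups were set by the age, diet and sex in the labels, and replicates were numbered in accession order. All 16 group means were fitted in limma 3.58.1 (R 4.3.3) with lmFit and eBayes over 67 arrays and 8448 probes, and 14 comparisons were taken from that fit, with Benjamini-Hochberg adjustment over all probes. A p-value sets a difference against the spread between arrays within a group. The main fit has no term for array set or filter place, so that spread holds them together with the mice. The test recovered known shifts in simulated z-scores. Members and lists were chosen with earlier results of these data known. Genes named are those passing, the 2 with the smallest p in each comparison, canonical chaperones, the steadiest and most variable, the highest and lowest, and those whose probes differed most. Gene names came from the platform annotation and all 35 matched the GRCm38.p6 gene table. The near-identical arrays stayed separate in the fits. Alternatives covered normalization, array set and cycle as blocks, correction by filter neighbours and leaving out arrays.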

Additional observations from a re-analysis of the deposited data

Results flagged for a closer look

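A single array stood far from the rest of its group in 4 of 50 groups of arrays looked at for the named genes, where chance marks about 1 in 20. Dnajb9 was -1.68 in 6 months AL male replicate 2, with the other arrays of that group between -3.95 and -3.63. Cct4 was 0.68 in 16 months CR female replicate 5, with the others between 0.93 and 1.02. Dnaja2 was -0.46 in 24 months AL female replicate 5, with the others between 0.04 and 0.21. Fkbp11 was -0.18 in 16 months AL female replicate 1, with the others between -0.45 and -0.38.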

How the results depend on the processing

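Apart from comparisons involving mice of 33-44 days and the first steps of the selection in the methods, the count of chaperone genes passing stayed at 0 under every alternative run. Between 33-44 and 17-21 days it was 1 with the array set as a block and 1 with array cycle and array set as blocks (Dnajc3), and leaving out single arrays it ran between 0 and 4. Between 6 months and 33-44 days it ran between 0 and 1 without single arrays. Those steps, run without the analysis of variance that follows them, took 1 gene (Cct4) between 24 and 16 months CR. Over all probes, 70 passed with the array set, 1 with array cycle and 21 with both as blocks between 33-44 and 17-21 days, as against 8, and 0, 54 and 92 did between 24 and 16 months AL, as against 0. Hspbp1 between 16 and 6 months AL turned to -0.0375 within the arrays numbered 46 and above. The cause of these changes was not tested. Of 581 repeats of the counts, 574 stayed at 0. In most comparisons 0 of all probes passed in the main fit, so a count staying at 0 says little there. Of 1124 repeats of named differences, 1115 kept their sign and their side of the adjusted p threshold, which leaves their size free to move. Of 28 named differences, 10 moved by over 1.5 times without a single array. The labels give no replicate numbers that pair mice across groups, and the array cycle, read from the array numbers in the titles, was the nearest to a matching that could be fitted as a block.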
